A study of Homo sapiens with 6 samples.

Results

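The RNA described here is the product of the nuclear tRNA genes for proline, valine, isoleucine, elongator methionine, phenylalanine, tryptophan and tyrosine, as seen by FLASH-seq of tagged HSP70 proteins. The genes were chosen by a rule on their symbols, from RefSeq GRCh38 genes of the tRNA biotype outside the mitochondrial chromosome. They number 112 of 429 nuclear tRNA genes (26.1%) on 16 chromosomes, 45 of them on chromosome 6. Valine has 28 genes, isoleucine 22, proline 20, tyrosine 13, elongator methionine 11, phenylalanine 11 and tryptophan 7. All 13 tyrosine genes and the 5 isoleucine genes with the anticodon TAT are 89 to 94 bp long, and these 18 were treated as intron-containing. The other 94 are 71 to 77 bp long.

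The study crosslinked RNA to a tagged protein with UV-C light in HEK293 Flp-In T-Rex cells, a human embryonic kidney line with an inducible transgene. The baits were 3xFLAG-HBH fusions of HSPA1A, the stress-inducible HSP70, and of HSPA8, the constitutive HSP70, each in 2 biological replicates. All cells received 1 µg/ml tetracycline, so every library comes from cells that make a tagged transgene product beside their own HSP70. Peaks of the GFP bait were not analysed here, and no value below has a control background. A list of peaks does not measure the expression of cell line markers, so the cell line was not checked. In the text, a peak is an interval of the authors' list for 1 library, and a gene has a peak if they share at least 1 bp.

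HSP70 proteins are ATP-driven chaperones that bind and refold exposed stretches of other proteins. tRNA genes are transcribed by RNA polymerase III from a promoter that lies inside the gene, made of an A box and a B box. The precursor is trimmed at both ends, a CCA tail is added, and in some genes an intron next to the anticodon is cut out by the TSEN endonuclease and the exons are joined by the RTCB ligase. In the folded tRNA the D arm lies on the 5′ side, the anticodon arm in the middle and the T arm, which holds the B box, on the 3′ side.

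Sequence was at hand for the genes that lie inside a RefSeq promoter window (GRCh38.p14, 300 bases per window). None of the 112 has an entry of its own, and sequence was read for 5 that lie inside the window of another gene. Those shown here are a proline and a phenylalanine gene, whose peaks share a stretch before the anticodon in the one and past it in the other, and an intron-containing isoleucine gene without a peak. They are written 5′ to 3′ as the tRNA reads. In the first pair capitals mark the bases under the peak in each of the 3 lists that have one, and in the isoleucine gene they mark the anticodon.
TRP-TGG3-5, chr16:3188094-3188165, plus strand: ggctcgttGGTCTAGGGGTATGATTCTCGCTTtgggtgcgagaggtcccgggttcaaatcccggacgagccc
TRF-GAA1-5, chr13:94549650-94549722, minus strand: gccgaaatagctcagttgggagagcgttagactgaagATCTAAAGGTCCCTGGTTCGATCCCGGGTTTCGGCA
TRI-TAT2-2, chr6:27020346-27020439, plus strand: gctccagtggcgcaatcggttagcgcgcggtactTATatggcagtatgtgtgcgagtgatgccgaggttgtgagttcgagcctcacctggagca

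The capitals in TRP-TGG3-5 run from base 9 to base 32 and stop just before the anticodon at bases 33 to 35. Only the HSPA8 replicate 2 peak on this gene ended there. The HSPA1A replicate 2 peak went on to base 43 and the HSPA8 replicate 1 peak to base 75, so these cover the anticodon. The capitals in TRF-GAA1-5 run from base 38 to the last base, 73, and start past the anticodon at bases 34 to 36. TRP-TGG3-2 on chromosome 14, inside the promoter window of ANG, has the same 72 bases as TRP-TGG3-5. The strand was read from the B box, searched as GTTCNANNC on both strands. It lies at bases 52 to 60 of TRP-TGG3-5 and 53 to 61 of TRF-GAA1-5. The motif is short and 7.48% of the 35116 promoter windows hold it on either strand. All 14 tRNA genes inside a window, chromosome 8 not left out, held it on 1 strand. On that strand lay 22 of 22 peaks on 9 of these genes. Of the 22, 9 were on the 7 isotypes, all on TRF-GAA1-5, TRP-TGG3-2 and TRP-TGG3-5. The strand of the other peaks on the 7 isotypes, which include every valine, methionine and tyrosine peak, was not checked. Positions below are counted along the strand of the peak, base 1 being the first base of the gene.

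The lists held 2744 and 2059 peaks for HSPA1A and 3131 and 2040 for HSPA8, replicate 1 first. Scaffolds outside the chromosomes hold 353 and 617 peaks of HSPA8 and 0 of HSPA1A, so the authors' processing and the bait cannot be told apart. Peaks on tRNA genes numbered 180 and 159 for HSPA1A and 176 and 56 for HSPA8. Read depth is unknown.

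Of the 112 genes, 59 had a peak in at least 1 list (52.7%; 55.5% of all 429 tRNA genes did). HSPA1A replicate 1 had a peak at 20 of them (17.9%; all tRNA genes 40.6%), HSPA1A replicate 2 at 29 (25.9%; 35.4%), HSPA8 replicate 1 at 48 (42.9%; 40.8%) and HSPA8 replicate 2 at 19 (17.0%; 13.1%). Each of these genes had 1 peak per list. HSPA1A averaged 24.5 ± 6.36 genes (SD, n = 2), HSPA8 averaged 33.5 ± 20.5 genes (SD, n = 2), and the groups overlap (exact permutation test, two-sided, p = 1). Without HSPA8 replicate 1 the direction turned, to 5.5 genes more with HSPA1A. Only 7 genes had a peak in both HSPA1A lists (6.25%; 26.8% of all tRNA genes), 17 in both HSPA8 lists (15.2%; 11.9%) and 1 in all 4 lists (0.893%; 7.69%). In the 3 lists other than HSPA1A replicate 1, 17 genes had a peak in each. The isotypes took different lists: proline genes were in every list but HSPA1A replicate 1, methionine genes in the lists numbered 1, phenylalanine genes mainly in the HSPA1A lists, and tryptophan genes in none.

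**Figure D1:**
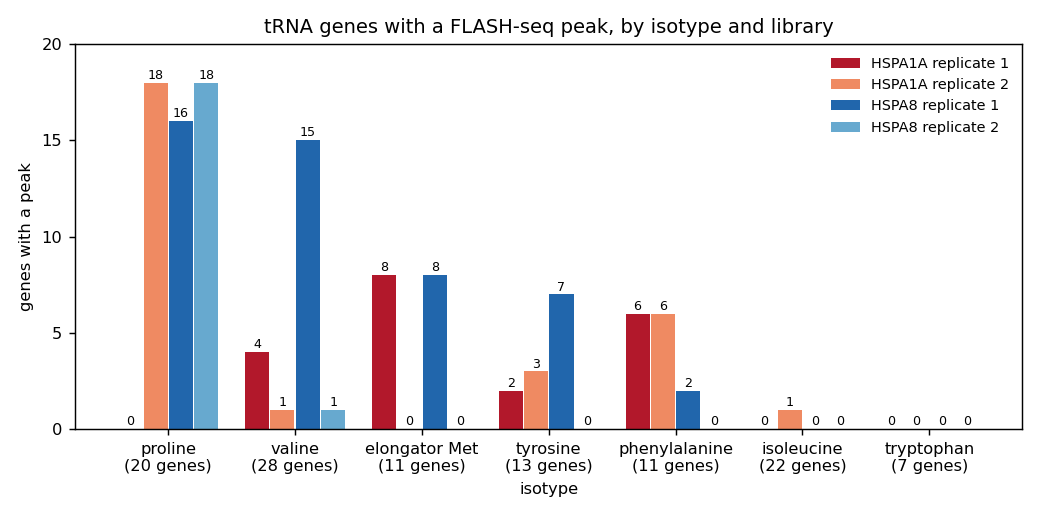
Number of genes with a peak (y axis) for each isotype (x axis, with its number of genes) in the 4 libraries, 1 bar per library. Proline stands at 0, 18, 16 and 18 genes, elongator methionine at 8, 0, 8 and 0, phenylalanine at 6, 6, 2 and 0, and tryptophan at 0 in each.

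Proline tRNA decodes proline codons, and its genes fall into the anticodons AGG (9 genes), TGG (7) and CGG (4). Of 20 proline genes, 18 had a peak: all AGG and CGG genes and the 5 copies of TRP-TGG3. TRP-TGG1-1 and TRP-TGG2-1 had none. Counts were 0 and 18 genes for HSPA1A and 16 and 18 for HSPA8, a mean of 9 ± 12.7 (SD, n = 2) against 17 ± 1.41 (SD, n = 2). Leaving out HSPA1A replicate 1 turned the direction to 1 gene more with HSPA1A (exact permutation test, two-sided, p = 1, and p = 1 with all lists; adjusted over the 7 isotypes 1). A peak in the other 3 lists but not in HSPA1A replicate 1 was found at 18 of all 429 tRNA genes (4.2%), and 16 of these were proline genes.

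Most proline peaks lay on the 5′ side of the tRNA, with the midpoint of 47 of 52 before the middle of the gene. In HSPA1A replicate 2, all 13 AGG and CGG genes had a peak from base 9 to 32 with a score of 9, and the 5 TRP-TGG3 copies had one from base 9 to 43 with a score of 14. The score is the authors' whole number per peak, whose meaning is not stated, and it is used here only within a list. In HSPA8 replicate 2 the same 13 genes had a peak from base 7 to 32 and the 5 TRP-TGG3 copies from base 8 to 32, all with a score of 8. HSPA8 replicate 1 gave longer peaks from base 9, ending at base 55 on 11 genes, at base 70 on 2 and at base 75 on 3, with scores of 8 to 11. The starts of the intervals thus lay within bases 7 to 9 in all 3 lists, while the ends lay between bases 32 and 75 and were at base 32 on the AGG and CGG genes in both lists numbered 2. TRP-TGG3-1, on chromosome 5 from 181188854 to 181188925, had scores of 14, 8 and 8 in HSPA1A replicate 2 and HSPA8 replicates 1 and 2. TRP-TGG3-4, on chromosome 16 from 3184133 to 3184204, and TRP-TGG3-5 had 14, 11 and 8.

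**Figure D2:**
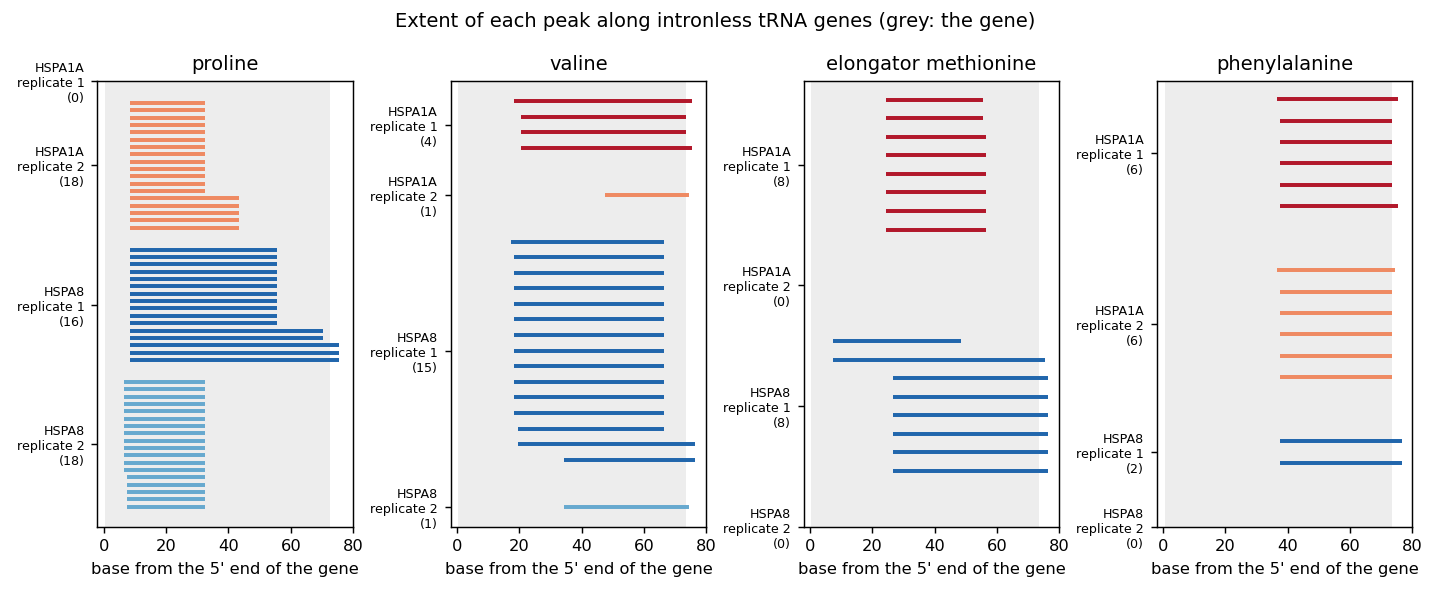
Each line is 1 peak on 1 gene, from its first to its last base (x axis, bases from the 5′ end of the gene), grouped by library with the number of peaks in brackets; the grey band is the gene. Proline peaks start at bases 7 to 9, and in both lists numbered 2 most end at base 32. Phenylalanine peaks start at base 37 or 38.

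The midpoint of the proline peaks stood at a median of 0.278 of the gene length for HSPA1A replicate 2 and at 0.438 and 0.264 for HSPA8. In the same lists the medians of the isotypes outside the 7 ranged from 0.486 to 0.817, from 0.521 to 0.808 and from 0.521 to 0.767. The proline values lie below those ranges in all 3 lists, and this was not tested because copies are not replicates. Over all 7 isotypes, the share of peaks whose midpoint lay past the middle of the gene, on its 3′ side, was 100% and 37.9% for HSPA1A and 75.0% and 5.26% for HSPA8. The other tRNA genes had 81.9% and 79.2% for HSPA1A and 96.9% and 97.3% for HSPA8. The mean of the 7 isotypes was 69.0% ± 43.9 (SD, n = 2) against 40.1% ± 49.3 (SD, n = 2; exact permutation test, two-sided, p = 0.667). Its direction turned without HSPA1A replicate 1 (-2.20 percentage points, HSPA1A minus HSPA8), without HSPA8 replicate 2 (-6.03), and among peaks at or above the median score of their list. Without the proline genes the shares were 100% with HSPA1A in both replicates, and 96.9% and 100% with HSPA8.

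Valine is a branched-chain amino acid with the anticodons AAC, CAC and TAC among its tRNA genes. Of 28 genes 17 had a peak, with counts of 4 and 1 for HSPA1A and of 15 and 1 for HSPA8. Means were 2.5 ± 2.12 and 8 ± 9.90 genes (SD, n = 2 each; exact permutation test, two-sided, p = 1), and without HSPA8 replicate 1 the direction turned to 1.5 genes more with HSPA1A. HSPA8 replicate 1 alone had a peak at 13 of the 28, among 27 of all 429 tRNA genes with that pattern (6.29%). Of the 15 peaks in that list, 13 ended at base 66 and started at bases 18 to 20. They covered all 5 copies of TRV-AAC1, 6 of the 7 copies of TRV-CAC1, TRV-CAC5-1 and TRV-CAC2-1, with scores of 5 to 9. TRV-CAC2-1, on chromosome 6 from 27280270 to 27280342, had the score of 9 and no peak elsewhere.

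TRV-TAC2-1, on chromosome 11 from 59550987 to 59551059 inside the long non-coding RNA gene LOC102723575, was the gene with a peak in all 4 lists. HSPA1A gave it scores of 21 and 5, and HSPA8 of 7 and 5. HSPA1A peaks covered its bases 21 to 75 and 48 to 74, and HSPA8 peaks its bases 35 to 76 and 35 to 74. All 4 ended 1 to 3 bases past the annotated gene, and their starts differed by 27 bases. The score of 21 in HSPA1A replicate 1 was the highest of the peaks on the 7 isotypes in that list. TRV-CAC1-4, on chromosome 5 from 181173650 to 181173722, had a peak with a score of 7 in HSPA1A replicate 1 and of 11 in HSPA8 replicate 1. Those peaks began at bases 19 and 20, where the other TRV-CAC1 copies in HSPA8 replicate 1 began at base 19. They ended past the gene, whereas those of the other copies ended at base 66.

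Elongator methionine tRNA places methionine inside proteins, while initiator methionine tRNA, which is not part of this group, starts them. Of 11 elongator genes 8 had a peak, and all 8 had it in both lists numbered 1 and in neither list numbered 2. That pattern was found at 31 of all 429 tRNA genes (7.23%). The mean was 4 ± 5.66 genes (SD, n = 2) for each bait, so the spread lay between replicate numbers and not between baits (exact permutation test, two-sided, p = 1). In HSPA1A replicate 1 the peaks ran from base 25 to 55 or 56, with scores of 6 or 7. In HSPA8 replicate 1 they ran from base 27 to 76 on 6 of the 8 genes, with scores of 10 or 11. These peaks span the anticodon arm, and in HSPA8 replicate 1 most also reach the 3′ end. The exceptions were TRM-CAT3-1, from base 8 to 48 with a score of 5, and TRM-CAT3-2, from base 8 to 75 with a score of 8. TRM-CAT2-1, on chromosome 16 from 71426493 to 71426565, had scores of 7 and 11 in HSPA1A replicate 1 and HSPA8 replicate 1. TRM-CAT4-1 and TRM-CAT4-2, on chromosome 6 from 26735370 to 26735442 and from 26743263 to 26743335, had the same scores.

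Phenylalanine is an aromatic amino acid, and its tRNA has the anticodon GAA in all 11 genes. The 6 copies of TRF-GAA1 had a peak, and the 5 other genes, each the lone copy of its family, had none. Both HSPA1A lists had a peak at 6 genes, and the HSPA8 lists at 2 and 0. The mean of 6 ± 0 genes for HSPA1A did not overlap the 1 ± 1.41 for HSPA8 (SD, n = 2 each; two-sided exact permutation, p = 0.333, the lowest that 4 lists allow; adjusted over the 7 isotypes 1). When each list was limited to its 2040 top-scoring peaks, the difference went from 5 genes to 3 and the groups overlap. Counted by family rather than by copy, the lists held TRF-GAA1 in both HSPA1A lists and in HSPA8 replicate 1, and the groups then overlap. HSPA1A alone, in both replicates, had a peak at 4 of the 11 genes and at 23 of all 429 tRNA genes (5.36%).

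The phenylalanine peaks covered the 3′ part of the tRNA shown in capitals above. All 14 began at base 37 or 38, and 12 of them at base 38, which leaves 36 bases to the end of the gene. TRF-GAA1-4, on chromosome 12 from 124927843 to 124927915, had scores of 13 and 7 for HSPA1A and 8 for HSPA8 replicate 1. TRF-GAA1-5 had 10 and 6 for HSPA1A and 8 for HSPA8 replicate 1. It lies inside the long non-coding RNA gene LOC124903191, whose strand is the opposite one, and its peaks are on the strand of the tRNA. TRF-GAA1-2, on chromosome 6 from 28981672 to 28981744, had scores of 5 and 6 for HSPA1A and no HSPA8 peak. The score of 5 in HSPA1A replicate 1 was shared by 4 of the 6 copies.

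Among the 18 intron-containing genes 10 had a peak in at least 1 list (55.5% of all 429 tRNA genes did). HSPA1A replicate 1 had a peak at 2 of them (all tRNA genes 40.6%) and HSPA1A replicate 2 at 4 (all tRNA genes 35.4%). HSPA8 replicate 1 had one at 7 (all tRNA genes 40.8%) and HSPA8 replicate 2 at 0 (all tRNA genes 13.1%). Means were 3 ± 1.41 and 3.5 ± 4.95 genes (SD, n = 2 each; exact permutation test, two-sided, p = 1). The direction turned without HSPA8 replicate 1, to 3 genes more with HSPA1A, and without HSPA1A replicate 1, to 0.5 more. Among the 94 intronless genes 49 had a peak, with 18, 25, 41 and 19 genes in the 4 lists. Tyrosine, an aromatic amino acid, made up 9 of the 10, with counts of 2 and 3 for HSPA1A and of 7 and 0 for HSPA8. TRY-ATA1-1, TRY-GTA4-1, TRY-GTA6-1 and TRY-GTA7-1 had no peak.

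The tyrosine peaks were confined to the 3′ end of genes that are 89 to 94 bases long. Their first base lay 26 to 39 bases from the end of the gene, 36 bases at the median, and exactly 36 on 6 of 12 peaks. That is the distance found on the intronless phenylalanine gene, where the peak starts past the anticodon, although the tyrosine genes are 16 to 21 bases longer. Peaks toward the 3′ end were also found on isotypes outside the 7. In HSPA1A replicates 1 and 2 and HSPA8 replicate 1, median midpoints on phenylalanine genes were 0.753, 0.753 and 0.774 of the gene length. Those on tyrosine genes were 0.845, 0.798 and 0.809. The highest medians outside the 7 isotypes were 0.75, 0.817 and 0.808 in the same lists. The gene table gives no exon boundaries, so the distance to the splice site was not measured. TRY-GTA2-1, on chromosome 2 from 27050782 to 27050870 inside the protein-coding gene AGBL5, had peaks from base 53 to 90 in HSPA1A replicate 2 and 54 to 91 in HSPA8 replicate 1, with scores of 6 and 13. TRY-GTA5-3, on chromosome 14 from 20653099 to 20653192, had peaks from base 56 to 97 in HSPA1A replicate 1 and 57 to 97 in HSPA8 replicate 1, with scores of 5 and 12. TRY-GTA8-1, on chromosome 6 from 26575570 to 26575659, had peaks starting at base 55 in HSPA1A replicate 2 and 54 in HSPA8 replicate 1, with scores of 6 and 5.

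**Figure D3:**
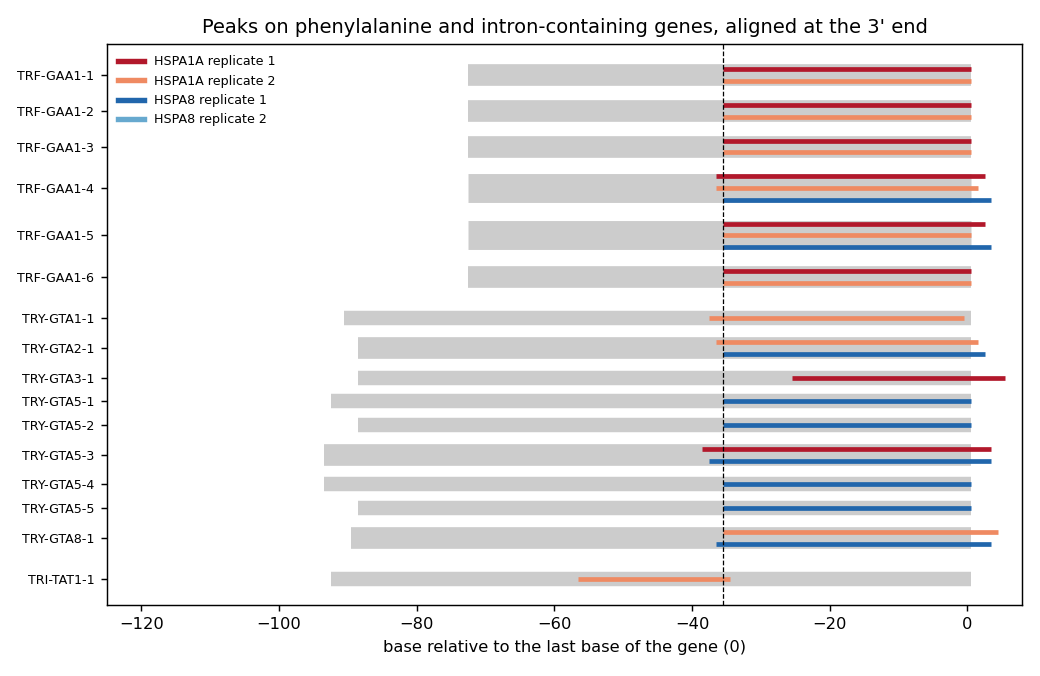
Peaks on phenylalanine, tyrosine and TAT isoleucine genes, aligned at the last base of the gene (x axis, 0). Grey bars are the genes, coloured lines the peaks by library, and the dashed line stands 36 bases from the end. All 14 phenylalanine peaks and 11 of 12 tyrosine peaks start within 3 bases of that line, and the TRI-TAT1-1 peak ends there.

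Isoleucine had 1 gene with a peak among 22, TRI-TAT1-1, which is intron-containing, on chromosome 19 from 39412168 to 39412260. The peak was present in HSPA1A replicate 2 alone, covered bases 37 to 58 of 93 and had a score of 4, the lowest on the 7 isotypes in that list. It ended 35 bases before the end of the gene, close to where the tyrosine peaks began. In TRI-TAT2-2, shown above and 94 bases long, the anticodon lies at bases 35 to 37, which leaves 57 bases after it against 37 in the intronless TRI-AAT8-1. The 14 AAT and 3 GAT genes of isoleucine had no peak in any list. None of the 7 tryptophan genes, whose anticodon is CCA, had one either.

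As a share of the peaks on tRNA genes, the 7 isotypes took 11.1% (95% Wilson interval 7.31 to 16.5) and 18.2% (13.0 to 25.0) with HSPA1A. With HSPA8 they took 27.3% (21.2 to 34.3) and 33.9% (22.9 to 47.0). The intervals cover counting error over peaks alone, and copies that share reads are not independent. The HSPA1A mean was 14.7% ± 5.04 (SD, n = 2) and the HSPA8 mean 30.6% ± 4.71 (SD, n = 2). HSPA8 stood 15.9 percentage points higher, more than the spread between replicates (two-sided exact permutation, p = 0.333, the lowest that 4 lists allow). It depended on the proline genes and on the score limit. With proline genes left out, HSPA1A had shares of 11.1% and 7.80% and HSPA8 of 20% and 2.63%, and HSPA1A minus HSPA8 was -1.86 percentage points (exact permutation, p = 1). Among peaks at or above the median score of their list, where HSPA8 replicate 2 kept 0 peaks on the 7 isotypes, it was -0.655 (exact permutation, p = 1). Limiting each list to its 2040 top-scoring peaks gave -16.2 (exact permutation, p = 0.333). As a share of all peaks the isotypes took 0.729% and 1.41% for HSPA1A and 1.53% and 0.931% for HSPA8, and the groups overlap (exact permutation test, two-sided, p = 0.667).

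**Figure D4:**
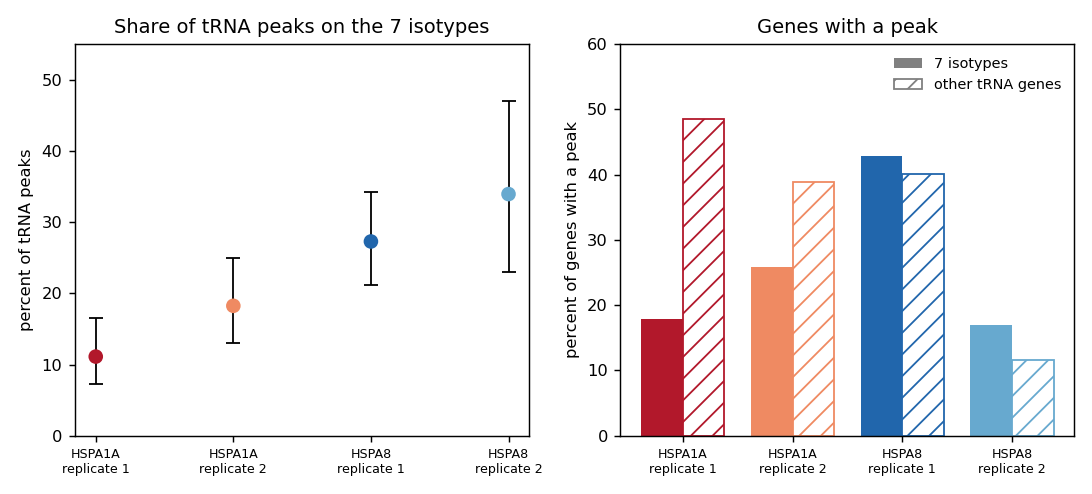
Left, the percent of tRNA peaks that lie on the 7 isotypes in each library, with 95% Wilson intervals; the HSPA1A lists stand at 11.1% and 18.2% and the HSPA8 lists at 27.3% and 33.9%. Right, the percent of genes with a peak among the 112 genes of the 7 isotypes (filled) and the 317 other tRNA genes (hatched).

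Among the 317 other tRNA genes HSPA1A had a peak at 48.6% and 38.8% and HSPA8 at 40.1% and 11.7%. The 7 isotypes, at 17.9% and 25.9% against 42.9% and 17.0%, were below these genes in both HSPA1A lists and above them in both HSPA8 lists. Without proline the other 92 genes were at 21.7% and 11.96% with HSPA1A and at 34.8% and 1.09% with HSPA8, below the genes of other isotypes in each list. The scores of the 7 isotypes ranged from 5 to 21 and from 4 to 14 with HSPA1A, and from 5 to 13 and from 5 to 8 with HSPA8. Their medians of 7 and 9 for HSPA1A and 8 and 8 for HSPA8 lie below the medians of the whole lists, 10, 13, 10 and 22. The medians on other tRNA genes were 10, 11, 11 and 6, so the 7 isotypes stood below them in 3 lists and above them in HSPA8 replicate 2. On other tRNA genes the highest scores reached 354 and 361 with HSPA1A, and 96 and 60 with HSPA8. At or above the median of its list stood 3 of 20 and 5 of 29 peaks of the 7 isotypes for HSPA1A and 12 of 48 and 0 of 19 for HSPA8. For the other tRNA genes these were 51.2% and 43.8% of peaks for HSPA1A and 63.3% and 32.4% for HSPA8.

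**Figure D5:**
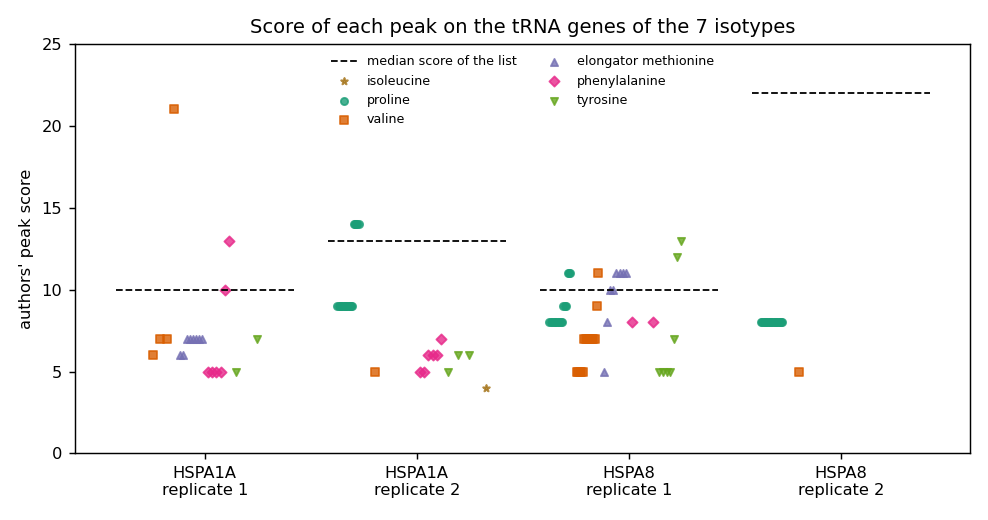
The authors' score (y axis) of each peak on the 7 isotypes, by library (x axis) and isotype (symbol); dashed lines give the median score of all peaks in the list. The highest point is TRV-TAC2-1 with 21 in HSPA1A replicate 1, and in HSPA8 replicate 2 each point is at 8 or 5, under the list's median of 22.

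Copies of a tRNA gene often gave the same peak, but not always. Symbols with the same family number, such as TRP-AGG2-1 to TRP-AGG2-8, name copies of one tRNA, and the 112 genes form 64 such families. A peak was present on 22 families, and in each of the 22 every copy had one in at least 1 list. For the 11 of these with 1 copy that holds by definition. Among families of other tRNA genes with a peak, 82 of 89 had one on every copy, and 56 of the 89 have 1 copy. Families of more than 1 copy had a peak in 11 of 16 cases (68.8%) and families of 1 copy in 11 of 48 (22.9%). The other tRNA genes gave 76.7% and 36.8%. Of the 116 peaks, 79 (68.1%) had the same first base, last base and score as a peak on another copy of the family in the same list. For 89 (76.7%) this held for another gene of the isotype, so families are not independent either. How reads that match several copies were placed is not given in the sources used here, so peaks are uncertain between copies. Where more than 1 copy of a family had a peak in a list, all of them had the same position and score in 12 of 22 cases. TRP-AGG2 had 4 distinct peaks over its 8 copies in HSPA8 replicate 1, and TRV-CAC1 had a peak on 1 of its 7 copies in HSPA1A replicate 1. Counted by family, a peak was present at 10 and 11 families for HSPA1A and 16 and 6 for HSPA8.

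The outer ends of the peaks stayed close to the annotated genes. None of the 116 began before the gene, and the earliest began at base 7. On other tRNA genes 22 of 455 peaks (4.84%) began before the gene, and 62 of the 455 began at or before base 5. Of the 116, 28 (24.1%) ended past the gene, by at most 5 bases, and 15 ended on its last base. On the other tRNA genes 49.7% ended past it. Ends past the gene were found on 7 of 12 tyrosine, 7 of 16 methionine, 6 of 21 valine, 5 of 14 phenylalanine and 3 of 52 proline peaks.

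Among 42 listed protein-coding genes that make and process these tRNAs, 2 had a peak in HSPA8 replicate 1 (4.76%), near the 4.66% of all protein-coding genes, and 0 in the other lists. Of 22 genes for RNA polymerase III and its factors, 0 had a peak in any list. Of 12 tRNA maturation genes TRNT1, the CCA-adding enzyme, had 1 peak with a score of 5 in HSPA8 replicate 1. Of 8 genes for the aminoacyl-tRNA synthetases of these isotypes VARS1, which charges valine tRNA, had 2 peaks with scores of 5 and 6 in HSPA8 replicate 1. In all, 4.02%, 2.34%, 4.66% and 1.31% of 19879 protein-coding genes overlapped a peak in the 4 lists, HSPA1A first.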

How the data were processed

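Peak lists of 4 FLASH-seq libraries were used, 2 each for HSPA1A and HSPA8. Per the labels' protocols, random adapter tags merged PCR duplicates. The submitters' processing notes name Trim Galore 0.4.4, FastQC, STAR 2.6.0b, deepTools and GRCh38, with no role for each; the peak caller, its threshold and the placement of multi-mapping reads are not given in the sources used here. The score deposited by the authors has no stated meaning and ranks peaks within a list only. Of 443 RefSeq tRNA genes outside chromosome MT, 14 on scaffolds were left out. The gene table gives no strand, so overlap of 1 bp or more ignored strand; genes of 80 bp or longer counted as intron-containing, since exons are not given. The exact permutation test between baits ran over the 6 orders of bait labels (smallest p 0.333).

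Genes named are those in all 4 lists, up to 3 per isotype by number of lists and then score rank, intron-containing genes in at least 2 lists, and, named after their values were seen, genes without a peak or with an exceptional one, TRNT1, VARS1 and both isoleucine genes whose sequence was described. The rule on symbols uses no measured value, but this group of isotypes and the gene lists were chosen with earlier results of these data known. The matched-strand alternative and the one by identical sequence were not run. Tools were pandas 2.3.3 and numpy 2.4.6 for counting, scipy 1.17.1 for tests and matplotlib 3.10.9 for plots, under Python 3.11.15, and counting was tested on simulated lists.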

Additional observations from a re-analysis of the deposited data

How the results depend on the processing

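The settings chosen after seeing the data were 2: copies of a family counted once, and proline left out. Of 172 values recomputed under another setting, 142 kept their direction or size, 17 reversed and 13 moved. The exact tests cannot pass 0.05. Tryptophan stayed at 0 throughout, and requiring the peak midpoint on the gene returned the main values, so the tally says nothing about stability. Differences are HSPA1A minus HSPA8. The share of tRNA peaks kept its sign throughout, from -19.5 to -12.4 percentage points with a replicate left out. The share of all peaks reversed to 0.0960 without proline and lay between -0.503 and 0.176 when 1 replicate was dropped. Genes with a peak ranged from -23.5 to 5.5. Intron-containing genes reversed to 0.5 with equal numbers of top-scoring peaks (2040 per list) and to 1.5 with copies counted once, and ranged from -4 to 3. The share on the 3′ side reversed to -50 for peaks at or above the median score, where HSPA8 replicate 2 had none left, and ranged from -6.03 to 63.7. Genes in all 4 lists numbered 0 at or above the median score, and from 1 to 17 in the remaining 3 lists. By isotype, proline reversed to 1 at or above the median score and ranged from -17 to 1, valine ranged from -12.5 to 1.5, and tyrosine reversed to 0.5 with equal numbers and to 1 with copies counted once and ranged from -4.5 to 2.5. The cause was not tested. The labels name no batch shared by a replicate number, and deviations of same-numbered lists correlated at 0.417 over the 112 genes and 0.177 over all 429. Gene copies that share a peak are not independent points in these correlations. With the replicate block the difference in the share of tRNA peaks is -15.9 by construction (exact sign-flip permutation, p = 0.5, the lowest for 2 pairs). No call could change. Since read depth is unknown, the precision of the counts is too.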

Other observations

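RefSeq also lists 20 pseudogenes whose symbols carry the prefixes of the 7 isotypes, and 0 of them had a peak in any list. A further 3 tRNA genes for valine and isoleucine with other symbols had 0 peaks. The nearest peak that did not touch one of the 112 genes lay 153 bp from TRF-GAA1-6, in HSPA8 replicate 2 with a score of 6, and sits on the asparagine tRNA gene TRN-GTT2-6. The smallest overlap of a counted peak with its gene was 22 bp. The number of genes with a peak was the same when at least 0.5 of the peak had to lie on the gene.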
